A study of Mus musculus with 24 samples.

Results

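Genes that bring fatty acids into the muscle fibre and burn them by beta-oxidation were followed in mouse skeletal muscle, as a list of 35 genes. They were found as the probes whose gene name on the array is a name on that list, which gave 58 of 56605 non-control probes. One probe then stood for each gene, so that the 35 genes were set among 19938 gene names tested. Total RNA of 24 muscle samples had been hybridised to one-colour Agilent arrays, 1 array per sample and 8 samples in each of 3 groups, which the design text counts as mice. HFD_O3 muscle came from mice of the O3 lineage on the HFD diet, which the design text calls the high fat, omega-3 lineage group. HFD_Cont muscle came from mice of the Cont lineage on the HFD diet, the high fat group of the control lineage. STD_Cont muscle came from mice of the Cont lineage on the STD diet, the low fat control. The O3 lineage on the low fat diet was not analysed here, so HFD_O3 against STD_Cont changes the diet and the lineage together. The labels do not state what sets the O3 lineage apart, the muscle taken, the age and sex of the mice or the time on the diets.

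Muscle takes up fatty acids that lipoprotein lipase releases from blood triglyceride, activates them to acyl-CoA and passes them into mitochondria as carnitine esters. There each turn of the beta-oxidation spiral dehydrogenates, hydrates, oxidises and cleaves the chain, releasing acetyl-CoA and passing electrons to the respiratory chain. Peroxisomes shorten very long and dicarboxylic chains with enzymes of their own, and the nuclear receptors of the PPAR family, which fatty acids activate, switch on many genes of the pathway.

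Every one of the 35 genes passed the filter on dim probes, and each used probe was well above background on 24 of 24 arrays, so none was left out. All group values below are log2 levels, the log2 processed spot signal minus that array's 75th percentile. A log2 level compares groups for 1 probe and not 1 gene with another. The share of spots well above background ran from 52.0% to 60.7% over the arrays, no spot was saturated, and the number of arrays limits the precision. The arrays lay on 3 slides of 8, each with arrays of all 3 groups. The 12 measured markers of skeletal muscle fibres, among them the actin gene Acta1 and the creatine kinase gene Ckm, were well above background on 24 of 24 arrays, and the mean deviation of the list stayed between −0.24 and 0.17 in every group. Slow fibre markers varied far more: the mean of 9 ran between −0.64 and 0.47 in HFD_O3 muscle, between −3.60 and 1.27 in HFD_Cont muscle and between −0.60 and 1.47 in STD_Cont muscle. HFD_Cont array 4 gave the −3.60. The mean of 13 white adipocyte markers ran between −1.16 and 1.55 in HFD_O3 muscle, between −1.06 and 2.05 in HFD_Cont muscle and between −1.32 and 1.18 in STD_Cont muscle. No marker of these 3 lists passed the test in any comparison, and 12 of the 13 adipocyte markers, Adipoq included, were well above background on 24 of 24 arrays. In whole muscle, fewer cells of a type and less RNA per cell cannot be told apart.

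High fat feeding in the control lineage left most of the pathway without a call. In HFD_Cont against STD_Cont muscle, 1 of the 35 genes rose, Decr1 of the mitochondrial spiral, and 1 fell, the peroxisomal gene Ehhadh. The other 33 did not pass the test (limma, Benjamini-Hochberg adjusted p under 0.05 over all 19938 names). Over all names 2.91% were called, 1.43% higher and 1.48% lower, so a count of 2 in 35 is not far from the background. Without adjustment, 4 members were higher and 6 lower at p under 0.05, where 7.92% and 8.63% of all names were. The members' median log2 change was 0.04, against 0.002 over all names. No member had groups that did not overlap, which 1.14% of all names had.

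No member passed the test in HFD_O3 against HFD_Cont muscle, where limma called 0.0% of all names and the smallest adjusted p of a member was 0.638. Without adjustment, 3 members were higher, Acot1, Acot2 and Cd36, and none lower, where 2.69% and 4.39% of all names were. No member's groups were apart there, as 0.0351% of all names were. In HFD_O3 against STD_Cont muscle no member passed either, with 0.597% of all names called (0.406% higher and 0.191% lower) and a smallest adjusted p of 0.0605, for Decr1. Without adjustment 9 members were higher there, 8 of the spiral and Fabp3, and 1 lower, Ehhadh, where 4.83% and 6.38% of all names were. Again no member's groups were apart, as 0.15% of all names were. The 3 comparisons share groups, so the values below stand side by side and are not independent of each other.

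**Figure D1:**
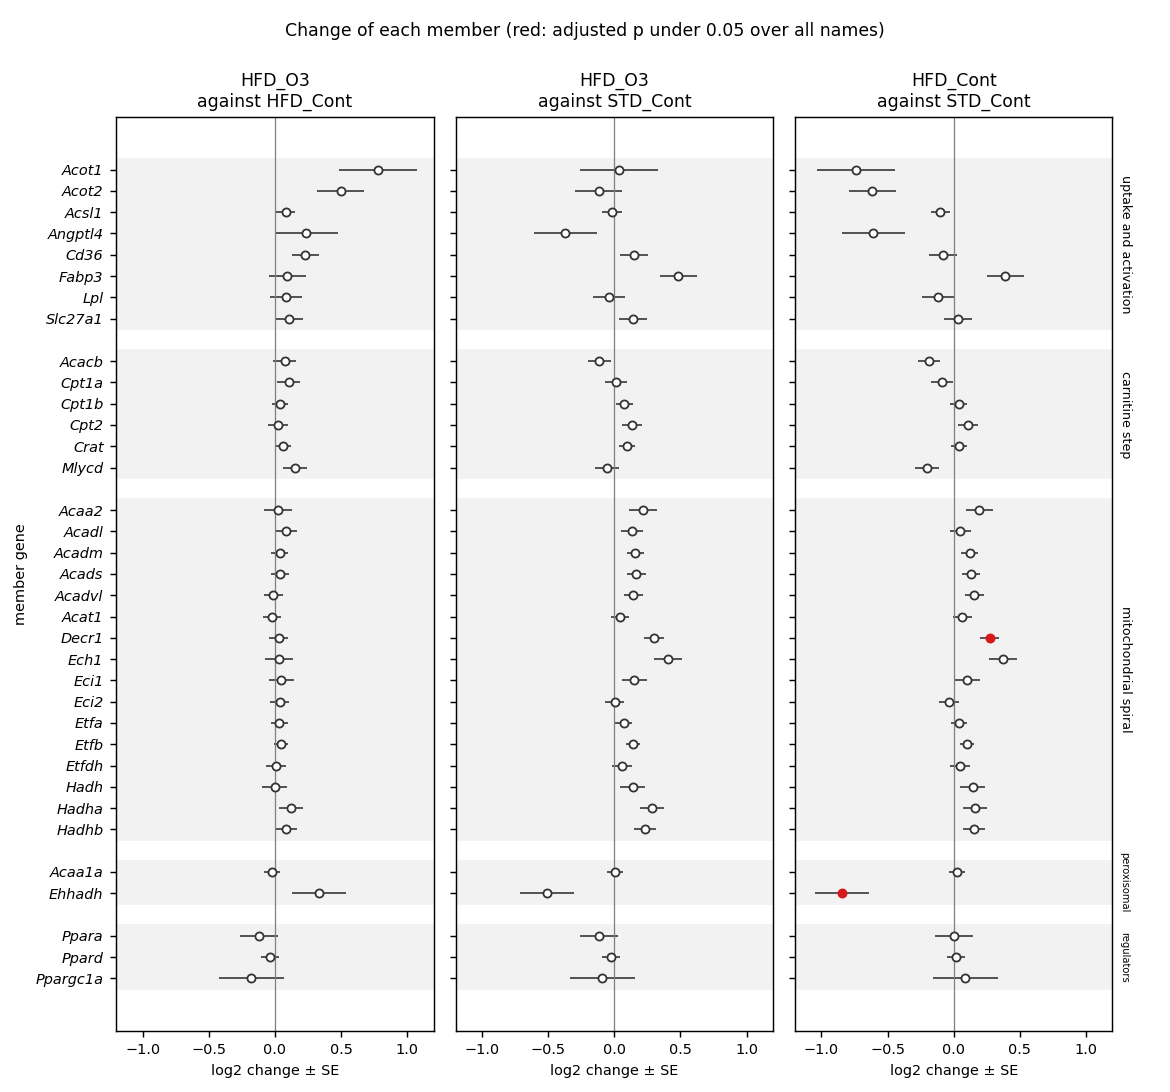
Log2 change of each of the 35 genes with its standard error (horizontal axis), in rows grouped by role, for HFD_O3 against HFD_Cont, HFD_O3 against STD_Cont and HFD_Cont against STD_Cont muscle, 8 arrays per group. Red points passed the adjusted test: Decr1 at 0.27 and Ehhadh at −0.84, both in HFD_Cont against STD_Cont.

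Of the 8 uptake and activation genes, 6 had a negative log2 change in HFD_Cont against STD_Cont muscle, with a median of −0.11, and none passed the test. All 8 had a positive one in HFD_O3 against HFD_Cont muscle, with a median of 0.17, where 44.2% of all names were positive, and again none passed. Slides differed here: on slide 1, 2 of 8 were positive with a median of −0.08, while slides 2 and 3 gave 7 of 8 each, with medians of 0.40 and 0.30. In HFD_Cont against STD_Cont muscle 5 of 8 were positive on slide 1 and 1 of 8 on each of slides 2 and 3. The role was not uniform, since the fatty acid binding protein and the thioesterases lay on opposite sides in the high fat comparison.

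Fabp3, the binding protein that carries fatty acids through the cytosol of muscle fibres, had a log2 level between 9.21 and 9.80 (median 9.43) in HFD_O3 muscle, between 9.01 and 9.89 (median 9.38) in HFD_Cont muscle and between 8.65 and 9.47 (median 8.89) in STD_Cont muscle. All 8 HFD_O3 and all 8 HFD_Cont arrays were above the STD_Cont median, and 3 STD_Cont arrays reached into the range of both groups. The log2 change was 0.39 ± 0.14 (SE) in HFD_Cont against STD_Cont muscle, adjusted p = 0.127, and 0.48 ± 0.14 in HFD_O3 against STD_Cont muscle, adjusted p = 0.119. A second Fabp3 probe gave 0.40 in the first of these. Within slides 1, 2 and 3 the HFD_Cont against STD_Cont difference was 0.81, 0.12 and 0.19. With the slow fibre score as a covariate, which was added after seeing the data, both Fabp3 differences from STD_Cont muscle passed the test, with adjusted p = 0.0266 in HFD_Cont muscle and 0.0244 in HFD_O3 muscle.

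Acot1 and Acot2, neighbouring genes for the cytosolic and the mitochondrial thioesterase that split acyl-CoA back into fatty acid and CoA, had their lowest medians in HFD_Cont muscle. Acot2 had a log2 level between 3.98 and 5.37 (median 4.10) in HFD_O3 muscle, between 3.46 and 4.48 (median 3.71) in HFD_Cont muscle and between 4.02 and 4.85 (median 4.33) in STD_Cont muscle. Of the 8 HFD_Cont arrays, 7 lay below the STD_Cont median, and all 8 HFD_O3 arrays lay above the HFD_Cont median. The log2 change was −0.61 ± 0.18 in HFD_Cont against STD_Cont muscle (adjusted p = 0.0590), 0.50 ± 0.18 in HFD_O3 against HFD_Cont muscle (adjusted p = 0.638) and −0.12 ± 0.18 in HFD_O3 against STD_Cont muscle (adjusted p = 0.866). Neither of the larger differences passed the test in the main fit. With slide as a block the first of them passed (adjusted p = 0.0450) and the second did not (0.532). Within slides 1, 2 and 3 the first of them was −0.42, −0.998 and −0.57, and the second 0.17, 0.57 and 1.01.

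Acot1 varied more from mouse to mouse, between 1.72 and 4.07 (median 2.85) in HFD_O3 muscle, between 1.51 and 3.21 (median 2.01) in HFD_Cont muscle and between 2.02 and 3.90 (median 2.83) in STD_Cont muscle. Its log2 change was −0.74 ± 0.29 in HFD_Cont against STD_Cont muscle (adjusted p = 0.186) and 0.78 ± 0.29 in HFD_O3 against HFD_Cont muscle (adjusted p = 0.638). The HFD_O3 and STD_Cont medians were thus close together, and the difference of their means was 0.04 ± 0.29. On slide 1 neither comparison showed the gap, with −0.15 and −0.02, while slides 2 and 3 gave −1.41 and −0.80 in the first and 1.08 and 1.70 in the second. The probes of the pair lie at chr12:85358452-85358511 (Acot1) and chr12:85334553-85334612 (Acot2) of mm9 on the plus strand, and cross-hybridisation within this gene family was not tested.

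Lpl, the lipase that releases fatty acids at the vessel wall, and Angptl4, the secreted protein that inhibits it and a PPAR target, were both measured. Angptl4 had a log2 level between 3.70 and 5.11 (median 4.69) in HFD_O3 muscle, between 3.70 and 4.95 (median 4.28) in HFD_Cont muscle and between 4.32 and 5.95 (median 4.82) in STD_Cont muscle. The log2 change was −0.61 ± 0.24 in HFD_Cont against STD_Cont muscle, adjusted p = 0.176, with 7 of 8 arrays below the STD_Cont median and −0.59, −0.72 and −0.51 within slides 1, 2 and 3. Lpl had 6 probes, and all 6 had a negative log2 change in that comparison, between −0.40 and −0.11, with −0.12 ± 0.12 for the probe used (adjusted p = 0.697). Neither gene passed the test.

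Cd36, the fatty acid translocase of the plasma membrane, had a log2 level between 4.59 and 5.28 (median 4.74) in HFD_O3 muscle, between 4.35 and 5.04 (median 4.51) in HFD_Cont muscle and between 4.37 and 4.88 (median 4.59) in STD_Cont muscle. The log2 change was 0.23 ± 0.10 in HFD_O3 against HFD_Cont muscle, adjusted p = 0.676, and −0.08 ± 0.10 in HFD_Cont against STD_Cont muscle, adjusted p = 0.779. All 8 HFD_O3 arrays lay above the HFD_Cont median, yet the groups overlapped. Fat and vessels also use Cd36 and Lpl. The mean of 9 endothelial markers had medians of 0.08 in HFD_O3 muscle, −0.08 in HFD_Cont muscle and −0.03 in STD_Cont muscle. Of the 9, 1 passed in HFD_Cont against STD_Cont muscle, Kdr, which rose (log2 change 0.45, adjusted p = 0.0210). The list did not move as 1, since 3 of the 9 were positive there, and Cldn5 and Esam had −0.41 and −0.20 without passing. The part of vessels in these values was not tested. With the adipocyte score as a covariate, the Cd36 difference between HFD_O3 and HFD_Cont muscle was 0.17. Slc27a1, a fatty acid transporter with acyl-CoA synthetase activity, and Acsl1, the main long-chain acyl-CoA synthetase of muscle, had log2 changes of 0.03 ± 0.10 and −0.10 ± 0.07 in HFD_Cont against STD_Cont muscle, which did not pass the test.

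**Figure D2:**
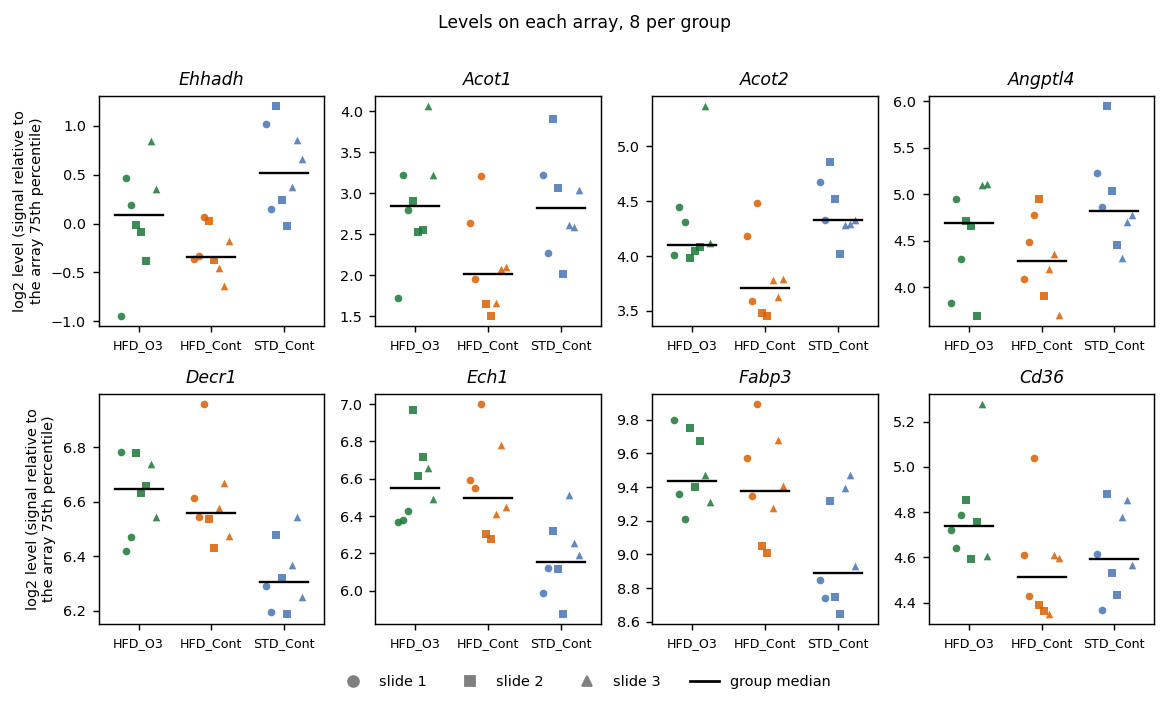
Log2 level (vertical axis, signal relative to the array's 75th percentile) on each array of 8 genes, with 8 HFD_O3, 8 HFD_Cont and 8 STD_Cont arrays from left to right, marker shape for the slide and a bar for the group median. Ehhadh, Acot1, Acot2 and Angptl4 have their lowest median in HFD_Cont muscle, while Decr1, Ech1 and Fabp3 have their lowest in STD_Cont muscle.

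No gene of the carnitine step passed the test in any comparison. Its 6 members split 3 and 3 by sign in HFD_Cont against STD_Cont muscle, with a median log2 change of −0.03. All 6 were positive in HFD_O3 against HFD_Cont muscle, with a median of 0.07, where 44.2% of all names were positive. Mlycd, the malonyl-CoA decarboxylase that removes the inhibitor of carnitine palmitoyltransferase 1, had a log2 level between 6.18 and 6.94 (median 6.61) in HFD_O3 muscle, between 6.23 and 6.71 (median 6.41) in HFD_Cont muscle and between 6.42 and 6.87 (median 6.68) in STD_Cont muscle. Its log2 change was −0.20 ± 0.09 in HFD_Cont against STD_Cont muscle (adjusted p = 0.256), and its 2 probes gave the same sign. In HFD_O3 against HFD_Cont muscle the used Mlycd probe gave 0.15 ± 0.09 (adjusted p = 0.754). The other Mlycd probe gave 0.29 there, with an unadjusted p of 0.00804 in a limma fit of all kept probes. Acacb, the mitochondrial acetyl-CoA carboxylase that makes malonyl-CoA, had a log2 level between 6.13 and 6.94 (median 6.59) in HFD_O3 muscle, between 6.40 and 6.57 (median 6.48) in HFD_Cont muscle and between 6.37 and 6.80 (median 6.68) in STD_Cont muscle. The HFD_Cont arrays lay in a narrow band below the STD_Cont median, and the log2 change was −0.19 ± 0.08 (adjusted p = 0.270). The maker and the remover of malonyl-CoA thus had differences of like sign and size, neither past the test.

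The transport enzymes themselves gave log2 changes between −0.09 and 0.11 in HFD_Cont against STD_Cont muscle. Cpt1b, the muscle form of carnitine palmitoyltransferase 1, differed by 0.04 ± 0.06 in HFD_Cont against STD_Cont muscle and by 0.04 ± 0.06 in HFD_O3 against HFD_Cont muscle. Cpt1a, the liver form, differed by −0.09 ± 0.08 and 0.10 ± 0.08 in these comparisons. Cpt2, which turns carnitine esters back into acyl-CoA inside the mitochondrion, differed by 0.11 ± 0.08 and 0.03 ± 0.08, and Crat, the acetyltransferase that buffers acetyl-CoA, by 0.04 ± 0.06 and 0.06 ± 0.06. All of these stayed below 2 standard errors. In HFD_O3 against STD_Cont muscle Cpt2 differed by 0.13 ± 0.08 with the probe used and by 0.28 with its other probe.

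Most genes of the mitochondrial spiral had a small positive change with high fat diet over all arrays, but not on every slide. In HFD_Cont against STD_Cont muscle, 15 of the 16 genes had a positive log2 change, with a median of 0.13, where 50.8% of all names were positive, and 1 passed the test. On slides 2 and 3 alone 7 of 16 were positive. Against STD_Cont muscle, HFD_O3 muscle had 16 of 16 positive, with a median of 0.15, where 44.4% of all names were positive, and none passed, while 8 were higher without adjustment. HFD_O3 against HFD_Cont muscle gave 13 of 16 positive with a median of 0.03, below the genes' median standard error of 0.08. The genes vary together from array to array, so the count of signs is not a count of independent observations.

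Decr1, the 2,4-dienoyl-CoA reductase that acts on polyunsaturated chains during their breakdown in the spiral, was the spiral gene that rose. Its log2 level ran between 6.42 and 6.78 (median 6.65) in HFD_O3 muscle, between 6.43 and 6.96 (median 6.56) in HFD_Cont muscle and between 6.19 and 6.54 (median 6.31) in STD_Cont muscle. All 8 arrays of each high fat group were above the STD_Cont median, with some overlap of the groups. The log2 change was 0.27 ± 0.07 in HFD_Cont against STD_Cont muscle, a fold of 1.21 with adjusted p = 0.0432, and the same comparison gave 0.46, 0.15 and 0.19 within slides 1, 2 and 3. HFD_O3 against STD_Cont muscle gave 0.30 ± 0.07 (adjusted p = 0.0605), and HFD_O3 against HFD_Cont muscle 0.03 ± 0.07 (adjusted p = 0.953). The call was near its threshold: with slide as a block the adjusted p was 0.0538, and with the adipocyte score as a covariate 0.0508. It was lost without any 1 of HFD_Cont arrays 1, 2, 3, 4, 6 and 7, STD_Cont arrays 1, 2, 3, 4, 5 and 8 or HFD_O3 arrays 5 and 6, with adjusted p between 0.0503 and 0.0897.

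Ech1, a dienoyl-CoA isomerase that also acts on unsaturated chains, followed the same order. It ran between 6.37 and 6.97 (median 6.55) in HFD_O3 muscle, between 6.28 and 6.999 (median 6.50) in HFD_Cont muscle and between 5.88 and 6.51 (median 6.16) in STD_Cont muscle. The log2 change was 0.37 ± 0.11 in HFD_Cont against STD_Cont muscle (adjusted p = 0.0563) and 0.40 ± 0.11 in HFD_O3 against STD_Cont muscle (adjusted p = 0.0850), so neither passed. All 8 arrays of each high fat group were above the STD_Cont median. The isomerases Eci1 and Eci2, which shift the double bond of unsaturated chains, differed by 0.10 ± 0.09 and −0.03 ± 0.07 in HFD_Cont against STD_Cont muscle. Of the 4 genes that handle double bonds, 1 thus passed the test, and Eci2 was the 1 spiral gene of 16 with a negative change in this comparison. Eci2 was placed in the spiral here, while its older name Peci stood in a list of other peroxisomal genes.

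None of the other spiral genes passed the test. The acyl-CoA dehydrogenases, which take the first step on chains of different length, had log2 changes of 0.16 ± 0.07 (Acadvl), 0.05 ± 0.08 (Acadl), 0.12 ± 0.07 (Acadm) and 0.13 ± 0.07 (Acads) in HFD_Cont against STD_Cont muscle. In HFD_O3 against STD_Cont muscle they were 0.14, 0.13, 0.16 and 0.17. Hadha and Hadhb, the subunits of the mitochondrial trifunctional protein, differed by 0.16 ± 0.09 and 0.15 ± 0.08 in HFD_Cont against STD_Cont muscle and by 0.28 ± 0.09 (adjusted p = 0.187) and 0.23 ± 0.08 (adjusted p = 0.248) in HFD_O3 against STD_Cont muscle. Hadh, the short-chain hydroxyacyl-CoA dehydrogenase, and Acaa2 and Acat1, the thiolases for medium chains and for acetoacetyl-CoA, differed by 0.14 ± 0.09, 0.19 ± 0.10 and 0.07 ± 0.07 in HFD_Cont against STD_Cont muscle. Etfa, Etfb and Etfdh, which hand the electrons of the dehydrogenases to ubiquinone, differed by 0.04 ± 0.06, 0.10 ± 0.05 and 0.05 ± 0.08.

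Probes of a gene disagreed in 2 spiral genes. Hadhb had 3 probes, and in HFD_Cont against STD_Cont muscle the used one gave 0.15, another 0.15 and the remaining one −0.40, with −0.37 in HFD_O3 against STD_Cont muscle. In a limma fit of all kept probes, the unadjusted p in the first comparison was 0.000745 for the odd probe (SE 0.10) and 0.0844 for the used one (SE 0.08). The odd probe lies at chr5:30494754-30494813 of mm9 and the used one at chr5:30510925-30510984. For Etfdh the unused probe gave −0.24, against 0.05 for the used one. With the mean of a gene's probes in place of the brightest probe, 13 of 16 spiral genes were positive in HFD_Cont against STD_Cont muscle.

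The lean of the spiral differed between slides. Within slide 1, 16 of 16 genes were positive in HFD_Cont against STD_Cont muscle with a median of 0.34, while slides 2 and 3 gave 7 of 16 each, with medians of −0.03 and −0.01. The lineages on high fat diet reversed between slides: in HFD_O3 against HFD_Cont muscle 0 of 16 were positive on slide 1 with a median of −0.14, 16 of 16 on slide 2 with 0.25, and 11 of 16 on slide 3 with 0.03. HFD_O3 against STD_Cont muscle gave 16, 15 and 10 of 16 positive, with medians of 0.17, 0.29 and 0.02. A slide holds 2 or 3 arrays of a group, so these are small sets. The slow fibre scores are given beside these values. On slide 1, HFD_O3 arrays 1, 2 and 3 had scores of 0.28, −0.51 and 0.47, HFD_Cont arrays 1, 2 and 3 had 1.02, −0.06 and 1.27, and STD_Cont arrays 1 and 2 had −0.33 and −0.46. On slide 2 the scores were −0.01, −0.55 and 0.43 on the HFD_O3 arrays, −3.60 and −0.71 on the HFD_Cont arrays and 0.12, −0.60 and −0.59 on the STD_Cont arrays. On slide 3 the scores were −0.64 and 0.43 on the HFD_O3 arrays, −0.37, −0.10 and 1.08 on the HFD_Cont arrays and 1.45, 1.47 and 0.52 on the STD_Cont arrays. The spiral means of HFD_Cont and STD_Cont muscle were apart on slide 1 and overlapped on slides 2 and 3. With the slow fibre score as a covariate over all arrays, 15 of 16 spiral genes were positive in HFD_Cont against STD_Cont muscle, with a median of 0.15. That fit included HFD_Cont array 4, at −3.60. Whether fibre type has a part in the slide differences was not tested.

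**Figure D3:**
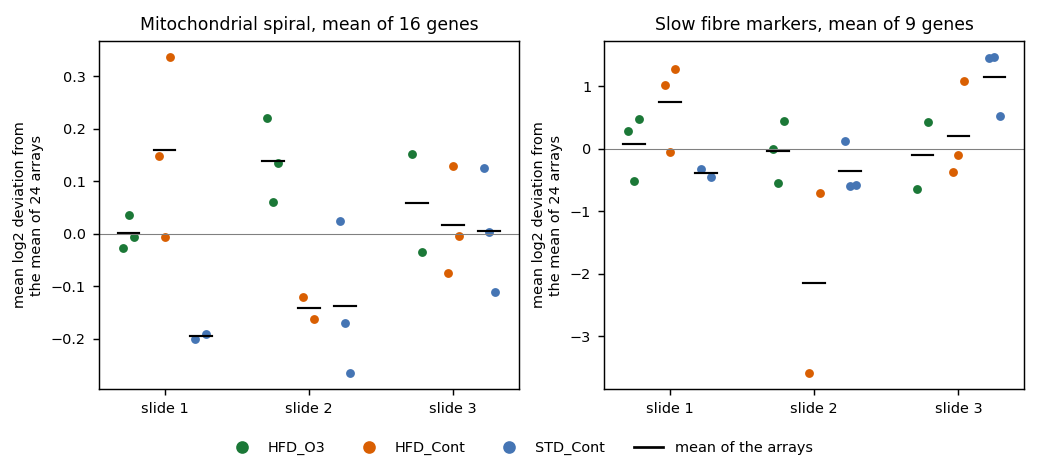
Mean log2 deviation from the mean of 24 arrays (vertical axes) of the 16 spiral genes (left) and the 9 slow fibre markers (right) on each array, by slide, with HFD_O3, HFD_Cont and STD_Cont from left to right within a slide and a bar for the mean. On slide 1 the HFD_Cont arrays lie above the STD_Cont arrays in the spiral, on slides 2 and 3 the HFD_Cont and STD_Cont arrays mix, and HFD_Cont array 4 stands at −3.60 in the slow fibre markers.

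Ehhadh, the peroxisomal bifunctional enzyme that hydrates and oxidises long and dicarboxylic chains and a classic PPAR alpha target, gave the largest difference of the 35 genes in HFD_Cont against STD_Cont muscle. Its log2 level ran between −0.95 and 0.85 (median 0.09) in HFD_O3 muscle, between −0.64 and 0.07 (median −0.35) in HFD_Cont muscle and between −0.02 and 1.203 (median 0.52) in STD_Cont muscle. All 8 HFD_Cont arrays lay below the STD_Cont median, and the groups overlapped only between −0.02 and 0.07. Ehhadh fell by 0.84 ± 0.21 on the log2 scale in HFD_Cont against STD_Cont muscle, a fold of 0.557 with adjusted p = 0.0277. Each slide had the same direction, with −0.79, −0.65 and −1.06. HFD_O3 muscle lay between the others, at 0.33 ± 0.21 against HFD_Cont muscle (adjusted p = 0.758) and −0.51 ± 0.21 against STD_Cont muscle (adjusted p = 0.321), and neither difference passed. Within slides 1, 2 and 3 the first of these was 0.11, 0.01 and 1.03 and the second −0.68, −0.63 and −0.03. By slide means, HFD_O3 muscle was thus close to HFD_Cont muscle on slides 1 and 2 and to STD_Cont muscle on slide 3, with 2 or 3 arrays of a group per slide. On slide 1 the HFD_O3 arrays were unlike: the mean deviation of the 2 peroxisomal genes was −0.67 on array 1 and 0.20 and 0.006 on arrays 2 and 3. The spread in HFD_O3 muscle, with an SD of 0.55, was wider than the 0.24 of HFD_Cont muscle.

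The Ehhadh call held with the adipocyte score (adjusted p = 0.0422) or the slow fibre score (0.0312) as a covariate. It was lost with the 6 combinations of slide and row as a block (0.0714), with median scaling (0.0507), and without any 1 of HFD_Cont arrays 2, 5, 6 and 7 or STD_Cont arrays 1, 3 and 7, with adjusted p between 0.0510 and 0.0697. Its single probe lies at chr16:21761914-21761973 of mm9 on the minus strand. Acaa1a, the peroxisomal thiolase that cleaves the product of Ehhadh, had similar medians in the 3 groups. It ran between 5.35 and 5.75 (median 5.68) in HFD_O3 muscle, between 5.51 and 5.80 (median 5.66) in HFD_Cont muscle and between 5.44 and 5.76 (median 5.62) in STD_Cont muscle. Its log2 change was 0.03 ± 0.06 in HFD_Cont against STD_Cont muscle (adjusted p = 0.891).

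The 3 regulators had differences below or near their standard errors. Ppargc1a, the coactivator of mitochondrial biogenesis, ran between 2.39 and 4.68 (median 3.24) in HFD_O3 muscle, between 3.20 and 4.10 (median 3.36) in HFD_Cont muscle and between 2.89 and 4.13 (median 3.25) in STD_Cont muscle. Its log2 change was 0.09 ± 0.25 in HFD_Cont against STD_Cont muscle and −0.18 ± 0.25 in HFD_O3 against HFD_Cont muscle, well within its spread. Ppard, the PPAR form abundant in muscle, ran between 1.81 and 2.24 (median 2.06) in HFD_O3 muscle, between 1.96 and 2.22 (median 2.11) in HFD_Cont muscle and between 1.81 and 2.31 (median 2.09) in STD_Cont muscle. Ppard differed by 0.01 ± 0.07 and −0.04 ± 0.07 in these comparisons and Ppara, the fatty acid sensor that drives Ehhadh in liver, by 0.01 ± 0.14 and −0.12 ± 0.14, none past the test. Levels of a receptor's RNA do not measure its activity.

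The genes nearest to the test fell into 2 groups by Pearson's r over all arrays, but were less clearly apart by rho. Among the 7 members with an unadjusted p under 0.02 in HFD_Cont against STD_Cont muscle, the deviations of the 24 arrays from their group means were correlated for all 21 pairs, with two-sided permutation within groups (100000 resamples) and Benjamini-Hochberg adjustment over the pairs. Fabp3, Decr1 and Ech1 formed one group, with r = 0.84 and rho = 0.85 for Fabp3 and Decr1, 0.78 and 0.78 for Fabp3 and Ech1, and 0.73 and 0.72 for Ech1 and Decr1. Adjusted permutation p was between 0.000105 and 0.000805 for r and between 0.000105 and 0.00136 for rho over these 3 pairs. Without the 2 arrays farthest out on the first gene, r was 0.78, 0.76 and 0.58. For scale, the median r was 0.47 over all 595 pairs of members and 0.74 over the 120 pairs of spiral genes. Ech1 and Decr1, both of the spiral, were thus about as close as most spiral pairs. The permutation p compares r with no correlation and not with these medians.

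Acot1, Acot2, Ehhadh and Angptl4 formed the other group. Acot1 and Acot2 had r = 0.86 and rho = 0.80, Acot1 and Ehhadh 0.78 and 0.70, Angptl4 and Ehhadh 0.72 and 0.71, Angptl4 and Acot1 0.66 and 0.57, and Acot2 and Ehhadh 0.64 and 0.57. Adjusted permutation p was between 0.000105 and 0.00467 for r and between 0.000105 and 0.0181 for rho over these 5 pairs, and r without the 2 farthest arrays between 0.51 and 0.79. Angptl4 and Acot2 had r = 0.47 and rho = 0.34, with adjusted permutation p of 0.0562 and 0.24. Within the single slides r was positive in every pair of either group, between 0.48 and 0.93.

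Over all arrays the pairs across the groups had a lower r, none past the threshold, which Angptl4 and Acot2 within a group also missed. Decr1 and Ehhadh, the genes that passed the test, had r = 0.10 and rho = 0.02, Fabp3 and Ehhadh 0.02 and 0.06, and Ech1 and Ehhadh 0.14 and 0.09. The strongest of the 12 pairs across groups was Acot1 and Ech1, with r = 0.46 and rho = 0.46 and adjusted permutation p of 0.0613 and 0.0717. Its r was close to that of Angptl4 and Acot2 within a group, and its rho was above theirs. Within single slides r across the groups ran from −0.47 (Fabp3 and Angptl4 on slide 3) to 0.79 (Acot1 and Decr1 on slide 2), so on a slide of 8 arrays some of these pairs were as close as pairs within a group. These members were picked by their difference between diets, all pairs share arrays, and genes of 1 array share its scaling.

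**Figure D4:**
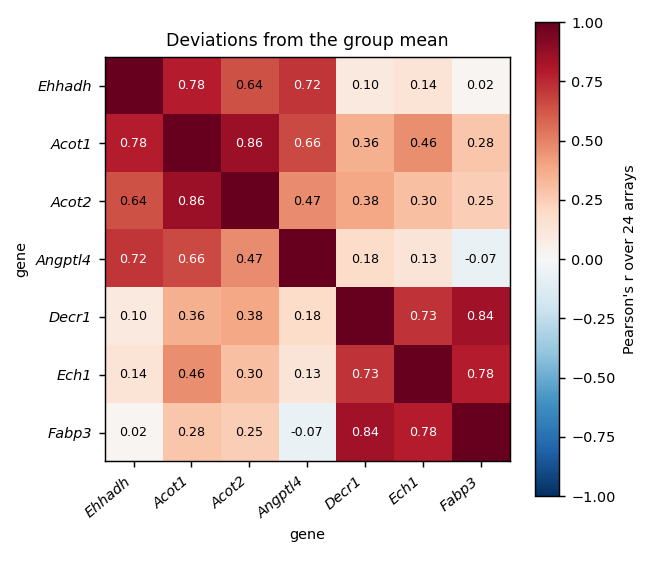
Pearson's r over 24 arrays between the deviations of 7 genes from their group means (colour and number in each cell). Ehhadh, Acot1, Acot2 and Angptl4 form a block with r from 0.47 to 0.86 and Decr1, Ech1 and Fabp3 another from 0.73 to 0.84, while pairs across the blocks lie between −0.07 and 0.46.

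Sequences upstream of the start were at hand for 28 of the 35 genes, as 31 promoters from RefSeq on GRCm38.p6, each 250 bases. None was at hand for Decr1, Acaa2, Acat1, Angptl4, Cpt1b, Crat and Lpl, so these genes were not searched. An exact spelling of the PPAR element, the direct repeat AGGTCANAGGTCA, was searched on both strands and found in none of the members' promoters and in 0.0335% of 32851 promoters. At that rate a match among 31 promoters was hardly to be expected, so its absence says nothing about these genes. Looser spellings were not searched. One AGGTCA, the unit of that repeat and thus also within it, was in the promoters of Acadm, Acadvl, Cd36 and Cpt1a, 12.9% of the members' promoters against 14.0% of all. CCAAT, read on both strands, was in the promoters of 16 members, 54.8% of theirs against 33.8% of all. A match describes the letters and not a bound site, and these windows leave out introns and distant elements.

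Ehhadh, Acot1 and Acot2, genes that varied together and had their lowest medians in HFD_Cont muscle, each hold 1 CCAAT in the window and no AGGTCA. They lie at chr16:21787835-21788084 on the minus strand, chr12:84009252-84009501 on the plus strand and chr12:83987611-83987860 on the plus strand, and are shown 5′ to 3′ with CCAAT or its reverse complement in capitals.
Ehhadh: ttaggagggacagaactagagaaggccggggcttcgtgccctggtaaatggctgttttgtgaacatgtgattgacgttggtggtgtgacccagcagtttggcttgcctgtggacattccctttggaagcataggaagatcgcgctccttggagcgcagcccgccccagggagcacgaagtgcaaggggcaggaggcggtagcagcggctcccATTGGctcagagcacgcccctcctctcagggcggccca
Acot1: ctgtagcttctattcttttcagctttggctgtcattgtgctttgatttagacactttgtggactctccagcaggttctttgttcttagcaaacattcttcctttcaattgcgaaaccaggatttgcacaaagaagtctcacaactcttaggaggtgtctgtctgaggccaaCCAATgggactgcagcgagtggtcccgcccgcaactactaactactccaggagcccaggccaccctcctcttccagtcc
Acot2: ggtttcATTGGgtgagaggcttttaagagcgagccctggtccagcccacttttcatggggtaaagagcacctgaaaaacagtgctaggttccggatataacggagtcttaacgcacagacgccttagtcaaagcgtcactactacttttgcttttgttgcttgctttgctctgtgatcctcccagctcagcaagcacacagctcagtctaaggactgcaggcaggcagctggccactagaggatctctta

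Acadm and Acadvl are shown as the spiral genes with an AGGTCA in the window, among those with a promoter at hand. In HFD_Cont against STD_Cont muscle the 4 members with AGGTCA had log2 changes of both signs, 0.12 for Acadm, 0.16 for Acadvl, −0.08 for Cd36 and −0.09 for Cpt1a, and CCAAT was also in spiral genes with positive changes, Etfa, Etfb, Etfdh and Hadh. None of the 4 with AGGTCA passed the test, and the negative changes were near their standard errors, 0.10 for Cd36 and 0.08 for Cpt1a. Whether either motif bears on these changes was not tested. The windows of Acadm and Acadvl are chr3:153944644-153944893 and chr11:70015429-70015678, both on the minus strand, with AGGTCA or its reverse complement in capitals.
Acadm: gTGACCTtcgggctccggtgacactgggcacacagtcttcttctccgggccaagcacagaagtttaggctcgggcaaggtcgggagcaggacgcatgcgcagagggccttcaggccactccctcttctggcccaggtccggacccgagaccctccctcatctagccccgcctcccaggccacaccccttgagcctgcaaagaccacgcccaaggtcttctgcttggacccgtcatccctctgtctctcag
Acadvl: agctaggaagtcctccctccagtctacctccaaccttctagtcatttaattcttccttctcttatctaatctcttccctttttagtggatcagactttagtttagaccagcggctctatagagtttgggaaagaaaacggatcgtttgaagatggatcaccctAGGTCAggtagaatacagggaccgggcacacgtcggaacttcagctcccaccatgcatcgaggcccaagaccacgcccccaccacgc

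Around the members, 109 of 117 other gene names of fatty acid handling were measured. Among the names not measured, Peci is an older name of the member Eci2. In HFD_Cont against STD_Cont muscle 2 of the 109 rose and 3 fell, where 1.43% of all names rose and 1.48% fell, and the median log2 change was −0.02. Against STD_Cont muscle, HFD_O3 muscle had 1 of the 109 higher and 0 lower, where 0.406% and 0.191% of all names were. So few calls were not read as a result about these genes as a set. Fabp5, a fatty acid binding protein of endothelium, fat and macrophages, ran between 2.30 and 3.30 (median 2.90) in HFD_O3 muscle, between 2.68 and 3.00 (median 2.79) in HFD_Cont muscle and between 2.13 and 2.59 (median 2.25) in STD_Cont muscle. It rose in both high fat groups, by 0.52 ± 0.11 in HFD_Cont muscle (adjusted p = 0.0171), where no array overlapped the STD_Cont arrays, and by 0.51 ± 0.11 in HFD_O3 muscle (adjusted p = 0.0300). The second of these calls was lost without any 1 of HFD_O3 arrays 1, 4, 5 and 6 or STD_Cont arrays 1, 2, 4, 5 and 8, with adjusted p between 0.0519 and 0.0733. Pex11a, a peroxisome division gene, rose by 0.25 ± 0.07 (adjusted p = 0.0357) in HFD_Cont muscle, and 11 of 24 single arrays left out ended the call, HFD_Cont 1, 2, 3, 4 and 7 and STD_Cont 1, 2, 4, 5, 7 and 8, with adjusted p between 0.0513 and 0.0786.

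The genes that fell beside Ehhadh were Pdk4, Ucp3 and Foxo1. Pdk4, the kinase that shuts pyruvate out of oxidation when fat is burned, ran between 8.78 and 9.57 (median 9.06) in HFD_O3 muscle, between 8.34 and 9.16 (median 8.79) in HFD_Cont muscle and between 9.16 and 9.49 (median 9.32) in STD_Cont muscle, with a log2 change of −0.54 ± 0.10 in HFD_Cont against STD_Cont muscle (adjusted p = 0.0103). Ucp3, the uncoupling protein of muscle mitochondria, ran between 1.27 and 2.35 (median 1.74) in HFD_O3 muscle, between 1.04 and 1.65 (median 1.41) in HFD_Cont muscle and between 1.62 and 2.70 (median 1.94) in STD_Cont muscle, with −0.68 ± 0.16 (adjusted p = 0.0240). Its call was lost with slide and row combined as a block (0.129) and without HFD_Cont array 5 or STD_Cont array 3, where adjusted p was between 0.0522 and 0.0533. Foxo1, a transcription factor of fasting muscle, ran between 2.39 and 3.56 (median 2.81) in HFD_O3 muscle, between 2.54 and 2.99 (median 2.69) in HFD_Cont muscle and between 2.99 and 3.76 (median 3.38) in STD_Cont muscle, with −0.64 ± 0.14 (adjusted p = 0.0193). All 3 genes had a positive log2 change in HFD_O3 against HFD_Cont muscle, of 0.33, 0.36 and 0.20, and none of these passed the test. The genes were picked for low HFD_Cont values, and the same HFD_Cont arrays are the baseline here, so a positive sign was favoured beforehand. Within slides 1, 2 and 3 this comparison gave 0.18, 0.32 and 0.67 for Pdk4 and 0.31, 0.17 and 0.74 for Ucp3. For Foxo1 it gave 0.06, −0.06 and 0.75.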

How the data were processed

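Each of the 24 muscle samples was hybridised to 1 array, with 200 ng of RNA labelled with Cy3 per the labels' protocols. Per the file headers, Agilent Feature Extraction 10.10.1.1 read the images, with probe positions on mm9. Intensity per spot is what the deposited scanner files give, raw and as a processed value from which the software removed background and spatial trend, without scaling arrays to each other. The authors' deposited value table holds log2 values, made with limma according to the submitters' processing notes. On comparison it tracked the log2 median spot signal of its own array for 24 of 24 columns (lowest r 0.9996), so its scale and direction are known, with column medians between 7.69 and 7.70.

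Here the log2 processed intensity minus each array's 75th percentile was used. Probes well above background on at least 6 of 8 arrays of a group were kept (29246), and of several probes of a name the brightest on average was used, for 19938 names. Groups were compared with limma 3.58.1 in R 4.3.3 on all 24 arrays with no block, two-sided, with Benjamini-Hochberg adjustment over all names. The steps were tested on simulated data. Symbols and promoters came from RefSeq tables on GRCm38.p6, and 51 of the 58 member probes matched by accession. Values are given in full for members past the threshold and for the 2 with the smallest p of each role in HFD_Cont against STD_Cont. Angptl4, Acot1 and Cd36 were added after their values were seen. The members and the lists were chosen with earlier results of these data known. Alternatives covered background correction, normalization, the filter, the probes of a gene, slide, array row, replicate number, array weights, marker scores and each array left out.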

Additional observations from a re-analysis of the deposited data

Results flagged for a closer look

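Of 105 sets of 8 arrays (35 genes in 3 groups), 5 held an array whose gap to the nearest other array divided by the whole range exceeded Dixon's 95% critical value, where chance alone gives about 5% of sets. Cd36 was at 5.28 on HFD_O3 array 7, where the other HFD_O3 arrays lay between 4.59 and 4.85. On the same array Acot2 was at 5.37, with the others between 3.98 and 4.45. HFD_Cont array 3 had Cd36 at 5.04, with the others between 4.35 and 4.61, and Decr1 at 6.96, with the others between 6.43 and 6.67. Acacb was low, at 6.37, on STD_Cont array 2, where the other STD_Cont arrays lay between 6.62 and 6.80.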

How the results depend on the processing

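In HFD_Cont against STD_Cont muscle the count of members past the threshold, 2, became 4 with normexp background correction, 4 in the authors' deposited table, 4 with array weights and 4 with the slow fibre score as a covariate, an alternative added after seeing the data. It became 1 with the adipocyte score as a covariate and 0 with median scaling, with no filter on dim probes, with slide and row combined as a block and on slides 1, 2 and 3 alone, where fewer arrays entered. Without HFD_O3 arrays 1 and 7 it was 4, and with single arrays left out it ran from 0 to 4, being 0 without HFD_Cont array 2, 6 or 7 or STD_Cont array 1 or 3. The added calls were Ech1, Acot2 and, with the slow fibre score, Fabp3. With slide as a block the count stayed 2, but the calls were Acot2 and Ehhadh, without Decr1. The causes were not tested. In HFD_O3 against STD_Cont muscle the count, 0, became 2 with normexp, 2 in the deposited table (Decr1 and Ech1) and 3 with the slow fibre score, and ran from 0 to 1 with single arrays left out (1 without HFD_O3 array 2 or 8, HFD_Cont array 3 or STD_Cont array 6 or 7). In HFD_O3 against HFD_Cont muscle it was 0 under every setting run. No log2 change of Decr1 or Ehhadh in HFD_Cont against STD_Cont muscle turned sign, with ranges of 0.15 to 0.46 and −1.06 to −0.65. Over all names the main count of 581 in HFD_Cont against STD_Cont muscle ran from 182 to 977 with single arrays left out, was 73 with slide and row combined as a block, 135 with no filter and 177 with median scaling, and reached 1238 without HFD_O3 arrays 1 and 7. Of the other pathway genes, Pdk4, Foxo1, Ucp3 and Pex11a lost their calls in HFD_Cont against STD_Cont muscle with slide and row combined as a block, with adjusted p of 0.105, 0.122, 0.129 and 0.171.

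Same-numbered arrays of different groups had deviations with correlations between −0.145 and 0.365. These values cannot decide whether the numbers pair the mice, and the main fit took no pairing. With the replicate block the count was 2 in HFD_Cont against STD_Cont muscle, again Ehhadh (adjusted p = 0.0362) and Decr1 (adjusted p = 0.0367), and 0 in the other comparisons, while Pex11a was lost (adjusted p = 0.0576).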

Other observations

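The members as a whole varied together between arrays of a group. Over all 595 pairs of the 35 genes, the median correlation of the deviations from group means was 0.47, and 530 pairs were positive. Over the 120 pairs of spiral genes the median was 0.74, and 120 were positive. These are descriptions over 24 arrays whose genes share the array's scaling.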
